A study of Mus musculus with 6 samples.

Results

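The genes described here are 10 named factors, regulators and targets of the YAP-TEAD pathway, taken from the deposited table by exact gene symbol. They occupy 11 of its 52636 rows, because Lats2 is listed for 2 gene models. RNA sequencing values come from 6 libraries of MC-38 (MC38), a mouse colon tumour cell line grown in serum-containing medium. There were 3 libraries with the genotype M1E5 Zfx F5 and 3 with the genotype M1E5 WT, all untreated. M1E5 stands in both genotype labels and is not explained there. Zfx, an X-linked zinc finger transcription factor gene, was targeted with a CRISPR ribonucleoprotein introduced by lipid transfection, and the labels state that the edit was checked by PCR. The series title speaks of knockout clones, and a single edited line, F5, is used here, so differences of that line that are unrelated to the edit cannot be told apart from those of the edit.

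The Hippo pathway restrains growth through a chain of kinases. The MST kinases, with the scaffold SAV1, activate the LATS kinases and their MOB1 partners, and LATS phosphorylates the coactivators YAP and TAZ so that they are held in the cytoplasm or degraded. Unphosphorylated YAP and TAZ enter the nucleus, bind TEAD transcription factors and switch on genes such as Cyr61, Ctgf and Ankrd1. Many of the targets, among them Amotl2 and Lats2, encode inhibitors of the pathway and form a negative feedback. Phosphorylation and nuclear entry are not seen in RNA, so the values below are transcript levels and not a measure of YAP activity.

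Expression is given in CPM, reads scaled to a common library total, recovered from the deposited log2 values, and the libraries held 18876673 to 24241864 reads. Zfx itself averaged 126 ± 3.67 CPM in the libraries labelled Zfx F5 and 67.7 ± 2.83 CPM in WT (SD, n = 3 each). The targeted gene was therefore higher, not lower, in the libraries labelled as edited (log2 difference 0.89, SE 0.042, limma adjusted p = 3.47e-18), and a sum over all exons cannot reveal a deleted segment. Every direction below rests on those labels. Of 10 colon epithelial markers, 5 (Epcam, Krt19, Krt20, Cldn7 and Muc2) had no read in any library, and the list summed to 3.80 to 4.13 CPM in libraries labelled Zfx F5 and 0.636 to 1.07 CPM in WT. Krt8 measured 1.84, 1.72 and 1.80 CPM in the libraries labelled Zfx F5 and was listed at 0 in the 3 WT libraries, but was not kept for testing. Cdh1, the 1 marker of this list that was kept, was called higher with a log2 difference of 1.33, as were 37.0% of all kept genes. Many genes differed: 8953 of 12279 genes kept for testing (72.9%) passed an adjusted p of 0.05 in limma. Whether the libraries are separate cultures is not stated, and the spread behind every p-value may therefore be technical.

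The classical targets Cyr61, Ankrd1 and Amotl2 were 2.04-fold to 2.23-fold higher in the libraries labelled Zfx F5. Among the factors, Tead1, Tead2 and Wwtr1 were 1.14-fold to 1.35-fold lower and Yap1 did not pass. The kinase gene Lats2 and the LIM protein gene Ajuba were 1.19-fold and 1.11-fold lower. Of the 9 rows kept for testing, 3 were higher and 5 lower in limma, against 37.0% and 35.9% of all kept genes in those directions. The 3 higher members were also at least 2-fold higher, a size reached by 4.11% of kept genes, and no member was at least 2-fold lower, against 5.99%. Amotl2 lay close to that limit, with a lowest log2 difference of 0.996 over the settings run for it. The members were chosen with earlier results of these data known, so these shares are a description and not support. Ctgf and the second Lats2 model were below the filter of a mean log2 value of 0. The median log2 difference over the 9 rows was -0.15, beside 0.02 over all kept genes. The groups did not overlap for 7 of the 9 rows, against 74.3% of kept genes; 3 of these were higher and 4 lower, against 37.8% and 36.5% of kept genes. The number of rows called, or without overlap, is thus no result about these genes. In the level plot the points of the targets stand apart by genotype, and those of Yap1 and Ajuba interleave.

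**Figure D1:**
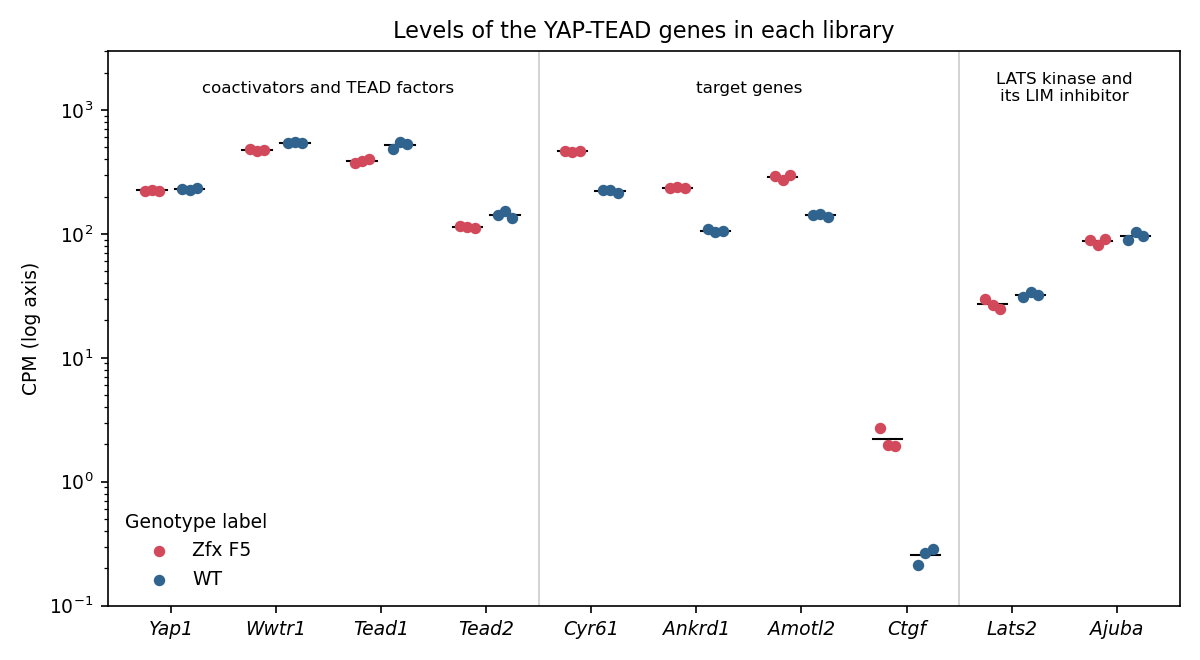
CPM of each gene (log axis) in the 3 libraries labelled Zfx F5 (red, left of each pair) and the 3 WT libraries (blue), with a line at each group mean; for Lats2 the abundant gene model is drawn. Cyr61, Ankrd1, Amotl2 and Ctgf are higher in every library labelled Zfx F5 than in any WT library, and the Yap1 points overlap.

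YAP1 and TAZ, the product of Wwtr1, are the coactivators of the pathway and carry no DNA-binding domain of their own. Yap1 (ENSMUSG00000053110, mm10 chromosome 9 from 7931999 to 8004596, minus strand) measured 223, 227 and 222 CPM in the libraries labelled Zfx F5, against 228, 224 and 233 CPM in WT. The ranges overlapped, with means of 224 ± 2.63 CPM in the libraries labelled Zfx F5 and 228 ± 4.59 CPM in WT (SD, n = 3 each). The log2 difference was -0.03 (SE 0.033, limma adjusted p = 0.459), and the ratio of pooled CPM was 0.979 with a 95% counting interval of 0.957 to 1.00.

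Wwtr1 (ENSMUSG00000027803, chromosome 3 from 57455649 to 57575910, minus strand) measured 488, 465 and 472 CPM in the libraries labelled Zfx F5, against 536, 553 and 536 CPM in WT. The groups did not overlap, though the highest library labelled Zfx F5 and the lowest WT library were only 0.14 log2 units apart. The log2 difference was -0.19 (SE 0.030, limma adjusted p = 1.81e-06), a 1.14-fold lower level. Per kilobase of exon, Wwtr1 outweighed Yap1 in every library, with a Wwtr1 to Yap1 ratio of 1.91, 1.79 and 1.86 in the libraries labelled Zfx F5 and 2.05, 2.16 and 2.01 in WT. The size of this ratio depends on the length used for Yap1, 4171 bases in the deposited table and 9257 in GENCODE M21: with the annotated lengths it averaged 4.11 in the libraries labelled Zfx F5 and 4.60 in WT, again without overlap. Their summed level per kilobase was 153 ± 2.07 CPM in the libraries labelled Zfx F5 and 168 ± 1.23 CPM in WT (SD, n = 3 each). Neither the ratio nor the sum overlapped between the groups, and the 2-sided exact permutation p was 0.1 for each. That is the smallest p that 20 assignments of 3 and 3 libraries allow, and the ratio's p was 0.133 after Benjamini-Hochberg adjustment over the 4 ratios tested.

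TEAD proteins are the DNA-binding partners of YAP and TAZ. Tead1 (ENSMUSG00000055320, chromosome 7 from 112679318 to 112906807, plus strand) measured 372, 389 and 399 CPM in the libraries labelled Zfx F5, against 484, 549 and 535 CPM in WT. All 3 libraries labelled Zfx F5 lay below all WT libraries, and the log2 difference of -0.43 (SE 0.041, limma adjusted p = 1.98e-08) was the largest fall among the 9 kept rows. Tead2 (ENSMUSG00000030796, chromosome 7 from 45215753 to 45233644, plus strand) measured 116, 114 and 112 CPM in the libraries labelled Zfx F5, against 141, 152 and 135 CPM in WT. Its groups did not overlap either, and its log2 difference was -0.32 (SE 0.040, adjusted p = 2.49e-08 in limma). The Tead2 to Tead1 ratio per kilobase overlapped between the groups, at 0.898, 0.839 and 0.806 in the libraries labelled Zfx F5 and 0.838, 0.793 and 0.726 in WT (2-sided exact permutation p = 0.2, and 0.2 after adjustment). The log2 difference between the ratios, 0.11, did not pass, which does not show that Tead1 and Tead2 changed alike.

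The remaining TEAD genes moved in opposite directions. Tead3 measured 2.78, 2.68 and 2.64 CPM in the libraries labelled Zfx F5, against 9.76, 8.95 and 9.24 CPM in WT, and was 3.42-fold lower (limma adjusted p = 5.72e-14). Tead4 measured 44.3, 47.3 and 47.8 CPM in the libraries labelled Zfx F5, against 33.7, 32.8 and 29.7 CPM in WT, and was 1.45-fold higher (limma adjusted p = 8.52e-10). Summed per kilobase over Tead1 to Tead4, TEAD transcripts reached 84.9 ± 1.20 CPM in the libraries labelled Zfx F5 and 105 ± 4.66 CPM in WT (SD, n = 3 each; 2-sided exact permutation p = 0.1, the smallest possible). Shares of the pool did not overlap between the groups for Tead4, Tead1 and Tead3 (2-sided exact permutation p = 0.1 each). Tead4 supplied 15.3 ± 0.415% of it in the libraries labelled Zfx F5 and 8.55 ± 0.664% in WT, and Tead1 supplied 45.3 ± 0.959% in the libraries labelled Zfx F5 and 49.6 ± 1.97% in WT. Tead3 supplied 1.06 ± 0.0447% in the libraries labelled Zfx F5 and 2.97 ± 0.252% in WT, or 0.613% and 1.77% with the annotated lengths. The Tead2 share overlapped between the groups, at 38.4 ± 1.31% in the libraries labelled Zfx F5 and 38.9 ± 1.28% in WT (all SD, n = 3 each).

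**Figure D2:**
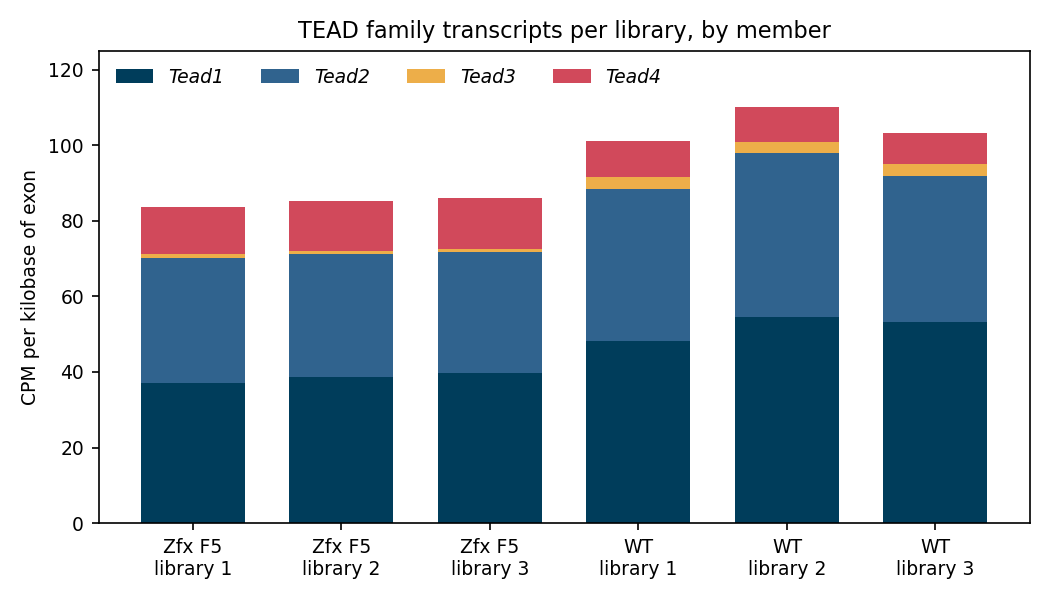
Stacked bars of the level of Tead1, Tead2, Tead3 and Tead4 in CPM per kilobase of exon, 1 bar per library, with libraries labelled Zfx F5 on the left and WT on the right. The totals average 84.9 in the libraries labelled Zfx F5 and 105 in WT, and the Tead4 segment is thicker in the libraries labelled Zfx F5.

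TEAD factors bind the core sequence GGAATG, and promoters of YAP targets often hold it. The promoter table from RefSeq (build GRCm38.p6, which shares its coordinates with mm10) gives 300-base windows, from 250 bases before to 50 after each start, and had windows for 8 of the 10 genes, not for Ctgf and Tead1. GGAATG was found on either strand in the windows of 7 of these 8 genes, all but Tead2, whereas 14.7% of all 32851 windows hold it. The first count is of genes and the share is of windows, so they are unlike measures. Wwtr1 and Lats2 have 2 windows each, and the second Lats2 window holds no match. The motif is shown because members that rose and members that fell both carry it. AP-1 motifs (TGANTCA) and the CArG box of serum response factor were searched in the same way and matched no member's window, against 7.81% and 1.63% of all windows. A match is a string of letters and not evidence of binding, and a missing match says nothing about the factor. The 250 bases before the Cyr61 start (minus strand, chr3:145649986-145650235) are printed 5′ to 3′ with the match in capitals, where CATTCC is GGAATG read on the other strand. The match begins 103 bases before the start.
Cyr61: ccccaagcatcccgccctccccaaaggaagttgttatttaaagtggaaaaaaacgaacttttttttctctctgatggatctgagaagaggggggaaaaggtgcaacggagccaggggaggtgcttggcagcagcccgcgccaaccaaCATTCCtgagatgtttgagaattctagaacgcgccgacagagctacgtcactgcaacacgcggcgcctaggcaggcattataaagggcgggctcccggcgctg

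The other matches are printed with 10 bases on each side, 5′ to 3′ on the strand of the gene, to let the members that rose and those that fell be compared. Matches of the higher genes begin 210 and 123 bases before the Ankrd1 start and 65 bases before the Amotl2 start. Those of the lower genes begin 136 bases before the more upstream Wwtr1 start, 186 and 164 bases before the Ajuba start, and at base 5 of the Lats2 transcript. The Yap1 match begins 141 bases before its start. GENCODE M21 annotates an exon of the gene itself over both Ankrd1 matches (1 transcript), the Amotl2 match (2 transcripts) and the Lats2 match (2 transcripts), and over none of the others.
Ankrd1, distal (chr19:36120039-36120064): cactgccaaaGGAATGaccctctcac
Ankrd1, proximal (chr19:36119952-36119977): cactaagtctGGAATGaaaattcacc
Amotl2 (chr9:102717729-102717754): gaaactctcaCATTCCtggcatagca
Yap1 (chr9:8004722-8004747): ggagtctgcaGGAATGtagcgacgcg
Wwtr1 (chr3:57576031-57576056): taaactcaaaGGAATGcagataggcg
Ajuba, distal (chr14:54577832-54577857): ttgatggataCATTCCacagtgcccc
Ajuba, proximal (chr14:54577810-54577835): cccctccgcgCATTCCaactgtaaac
Lats2 (chr14:57746104-57746129): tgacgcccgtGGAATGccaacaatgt

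Cyr61 encodes CCN1, a secreted matricellular protein that binds integrins, and is a direct target of YAP and TEAD as well as of serum response factor. The gene (ENSMUSG00000028195, chromosome 3 from 145646976 to 145649981, minus strand) measured 469, 458 and 464 CPM in the libraries labelled Zfx F5, against 226, 227 and 213 CPM in WT. The lowest library labelled Zfx F5 exceeded the highest WT library by 1.01 log2 units. The log2 difference was 1.06 (SE 0.032, limma adjusted p = 5.43e-23), and 3.66% of kept genes had a larger rise.

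Ankrd1 encodes a cardiac ankyrin repeat protein that acts in the nucleus and at the sarcomere of muscle, and is widely used as a readout of YAP and TAZ. The gene (ENSMUSG00000024803, chromosome 19 from 36111961 to 36120099, minus strand) measured 236, 240 and 233 CPM in the libraries labelled Zfx F5, against 109, 103 and 106 CPM in WT. The gap between the groups was 1.10 log2 units and the log2 difference 1.16 (SE 0.036, limma adjusted p = 6.56e-23).

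Amotl2, an angiomotin family gene whose protein binds and retains YAP, is at once a target and an inhibitor. The gene (ENSMUSG00000032531, chromosome 9 from 102716672 to 102733418, plus strand) measured 294, 273 and 300 CPM in the libraries labelled Zfx F5, against 143, 145 and 136 CPM in WT. The libraries labelled Zfx F5 spread more than for Cyr61 or Ankrd1, with replicate 2 lowest, and the groups were 0.92 log2 units apart. Its log2 difference was 1.03 (SE 0.037, limma adjusted p = 6.24e-21). Of the summed level per kilobase of Cyr61, Ankrd1, Amotl2 and Ctgf, Cyr61 supplied 53.5 ± 0.139% in the libraries labelled Zfx F5 and 54.5 ± 0.781% in WT, without overlap (2-sided exact permutation p = 0.1). The Ankrd1 share was higher, at 31.2 ± 0.725% in the libraries labelled Zfx F5 and 29.8 ± 0.989% in WT, and so was the Ctgf share, at 0.186 ± 0.0365% in the libraries labelled Zfx F5 and 0.0458 ± 0.00776% in WT, both without overlap (exact p = 0.1 each). Amotl2 supplied 15.1 ± 0.626% in the libraries labelled Zfx F5 and 15.7 ± 0.213% in WT, with overlap (p = 0.3 by the same exact test; SD, n = 3 each). The summed level itself was 429 ± 4.01 CPM per kilobase in the libraries labelled Zfx F5 and 202 ± 4.67 in WT. Each of the summed genes was higher in the libraries labelled Zfx F5, so the higher sum follows from that choice. Lats2, also named above as a target, was lower and is not in the sum.

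Ctgf, which encodes CCN2, the closest relative of CCN1 among the targets, was scarce in these cells. The gene (ENSMUSG00000019997, chromosome 10 from 24595442 to 24598683, plus strand) had 58, 39 and 44 reads in the libraries labelled Zfx F5, against 5, 5 and 7 reads in WT. These are 2.74, 1.97 and 1.93 CPM in the libraries labelled Zfx F5 and 0.214, 0.265 and 0.289 CPM in WT, where 3 reads correspond to 0.124 to 0.159 CPM. The groups did not overlap, and the ratio of pooled CPM was 8.66 (exact 95% counting interval 5.22 to 15.3). The gene missed the filter, with a mean log2 value of -0.32, so it has no test in the kept set. Among the 16996 genes with at least 10 reads in total, a choice made after its level was seen, the log2 difference was 2.94 (SE 0.295, limma adjusted p = 1.55e-10), beside 31.0% of those genes called higher and 27.5% called lower. Weighted for counts with voom over the same genes, its adjusted p in limma was 1.44e-08.

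Cyr61 exceeded Ctgf by a ratio per kilobase of 235, 319 and 329 in the libraries labelled Zfx F5, against 1448, 1180 and 1016 in WT. The ratio of Ankrd1 to Ctgf was 136, 191 and 189 in the libraries labelled Zfx F5, against 799, 612 and 579 in WT. Both ratios were lower in every library labelled Zfx F5, by -2.04 and -1.95 on the log2 scale (2-sided exact permutation p = 0.1 each, the smallest possible; 0.133 adjusted over 4 ratios). The WT values rest on 5 to 7 Ctgf reads per library, and with the annotated lengths the Ankrd1 to Ctgf ratio averaged 108 in the libraries labelled Zfx F5 and 418 in WT.

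Lats2 encodes a kinase that phosphorylates YAP and TAZ. Its main gene model (ENSMUSG00000021959, chromosome 14 from 57689662 to 57758388, minus strand) measured 30.1, 26.9 and 24.9 CPM in the libraries labelled Zfx F5, against 31.2, 33.8 and 32.2 CPM in WT. The groups came within 0.05 log2 units of each other, and the log2 difference was -0.25 (SE 0.065, limma adjusted p = 0.00104). The second model, ENSMUSG00000114942, overlaps the main one on the same strand and is named Gm49361 in GENCODE M21. It had 4, 5 and 2 reads in the libraries labelled Zfx F5, against 0, 2 and 1 in WT, too few to compare.

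Ajuba encodes a LIM domain protein that binds LATS kinases and holds them back at cell junctions under tension. The gene (ENSMUSG00000022178, chromosome 14, minus strand, with exons in the deposited table from 54567469 to 54577661) measured 88.4, 81.5 and 90.3 CPM in the libraries labelled Zfx F5, against 89.9, 104 and 96.1 CPM in WT. The groups overlapped. The log2 difference of -0.15 (SE 0.049) passed in limma (adjusted p = 0.00754) but not without Zfx F5 replicate 2 (adjusted p = 0.0611) or without WT replicate 2 (0.0743).

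**Figure D3:**
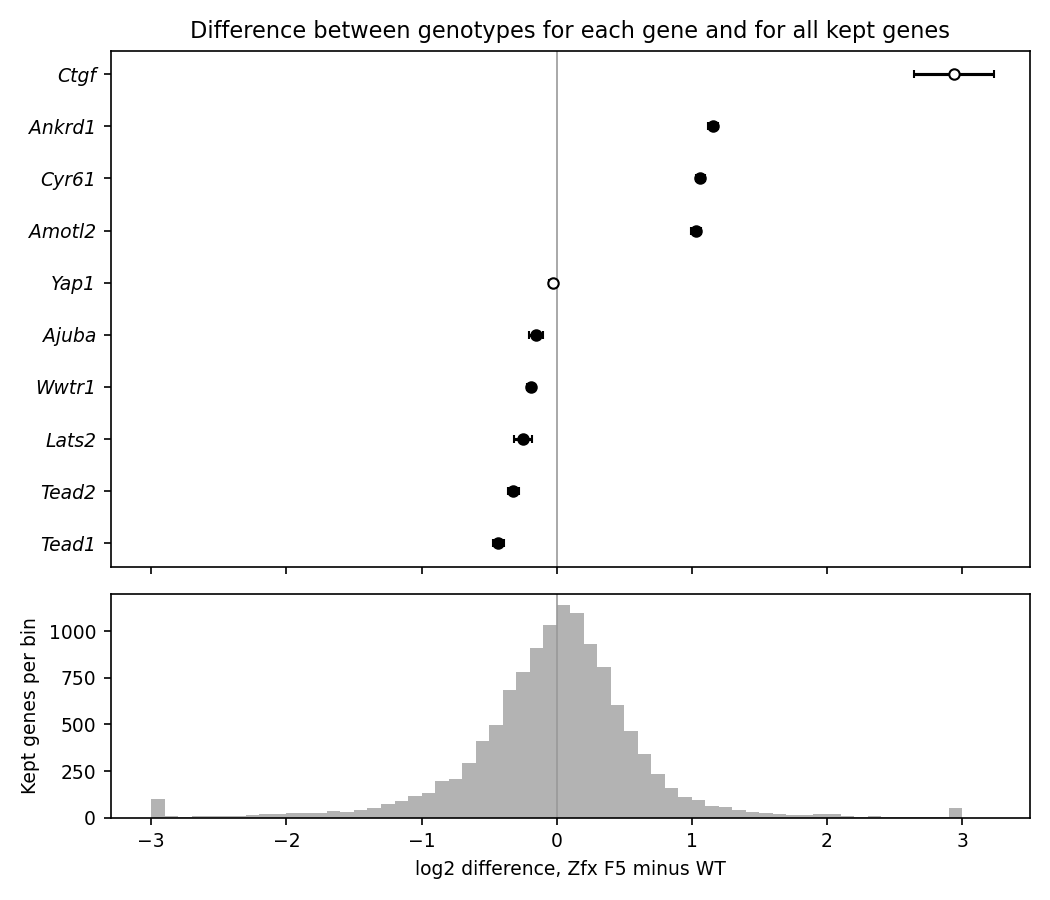
Top, log2 difference, Zfx F5 minus WT, for each gene, with bars of 1 standard error; open circles mark Yap1, which did not pass, and Ctgf, which lies below the filter and has its error from the fit over genes with at least 10 reads. Bottom, number of kept genes per 0.1-wide bin of the same difference, with genes beyond 3 on either side in the end bins; Ankrd1, Cyr61 and Amotl2 lie to the right of the bulk, the factors and regulators inside it.

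With the deposited exon lengths, the order of the genes by level per kilobase was not the same in the groups. Among libraries labelled Zfx F5, the order ran from Cyr61 at 230 ± 2.74 CPM per kilobase through Ankrd1 at 134 ± 2.16, Wwtr1 at 99.4 ± 2.37, Amotl2 at 64.8 ± 3.13, Yap1 at 53.7 ± 0.629, Tead1 at 38.5 ± 1.35 and Tead2 at 32.6 ± 0.643 (SD, n = 3). Ajuba at 24.8 ± 1.32, Lats2 at 4.21 ± 0.404 and Ctgf at 0.798 ± 0.163 followed, and no neighbours in that order overlapped. In WT, Wwtr1 at 113 ± 2.06 and Cyr61 at 110 ± 3.75 CPM per kilobase led and overlapped, Ankrd1 followed at 60.1 ± 1.61, and Yap1 at 54.7 ± 1.10 overlapped Tead1 at 52.0 ± 3.41. Tead2 at 40.7 ± 2.34, Amotl2 at 31.7 ± 1.01, Ajuba at 27.6 ± 1.96, Lats2 at 5.01 ± 0.203 and Ctgf at 0.0922 ± 0.0138 completed the WT order. Both orders depend on the length used. With the annotated lengths, Ankrd1 averaged 81.9 ± 1.32 in the libraries labelled Zfx F5, below Wwtr1 at 99.4 ± 2.37. Yap1 at 24.2 ± 0.284, Tead2 at 23.8 ± 0.470 and Ajuba at 23.8 ± 1.27 then overlapped in those libraries. Among WT libraries, Tead1 at 38.5 ± 2.53 then stood above Ankrd1 at 36.8 ± 0.982, with overlap.

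Of 20 genes of the Hippo kinase cassette and its upstream regulators, all kept, 16 fell, 3 rose and 1 did not pass, against 35.9% and 37.0% of all kept genes lower and higher. The median log2 difference was -0.35, beside 0.02 over all kept genes. This list too was chosen with earlier results of these data known, so its share of falls is a description and not support. The list mixes genes that restrain YAP with others, such as Limd1 and Wtip, that hold LATS back, and it does not hold Amotl2, which was 2.04-fold higher. The furthest falls were in Rassf1, a scaffold tumour suppressor that binds the MST kinases, which measured 59.1, 57.5 and 57.2 CPM in the libraries labelled Zfx F5 and 122, 120 and 115 CPM in WT (2.05-fold lower). Stk3, which encodes MST2, fell to 104, 104 and 100 CPM in the libraries labelled Zfx F5, against 195, 195 and 197 CPM in WT (1.90-fold lower). Map4k4, a kinase that can phosphorylate LATS, was 1.83-fold lower, and the angiomotin gene Amotl1 was 1.65-fold lower.

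The relatives of Ajuba fell further than Ajuba's own 1.11-fold: Wtip was 1.78-fold lower and Limd1 1.55-fold lower, a difference between genes that was not tested. Among the core genes, named after their values were seen, the scaffold gene Sav1 was 1.32-fold lower, the junctional adaptor gene Nf2 1.33-fold lower, the kinase gene Lats1 1.22-fold lower and Stk4, which encodes MST1, 1.11-fold lower. The MOB1 genes, which encode coactivators of LATS, were split, with Mob1b 1.20-fold lower and Mob1a 1.17-fold higher, also under TMM scaling and median centring. The 3 genes that rose were Mob1a, Taok2 and Frmd6. Taok2 and Frmd6 had log2 differences of 0.11 each and no longer passed with TMM scaling (limma adjusted p = 0.105 and 0.166). Both calls were also lost without Zfx F5 replicate 1 (0.104 and 0.105), WT replicate 1 (0.0666 and 0.0796) or WT replicate 2 (0.0528 and 0.0524). The Taok2 call was lost without Zfx F5 replicate 3 (0.0752), and the Frmd6 call without Zfx F5 replicate 2 (0.150) or WT replicate 3 (0.0542).

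Cofactors that compete with YAP for TEAD were also measured. Vgll3, which encodes a TEAD-binding cofactor, measured 24.5, 24.7 and 25.8 CPM in the libraries labelled Zfx F5, against 54.5, 58.4 and 55.5 CPM in WT, and was 2.24-fold lower (limma adjusted p = 2.53e-18). Vgll4, whose protein competes with YAP for TEAD, was 1.11-fold higher (limma adjusted p = 0.00907), a call that was lost without Zfx F5 replicate 1 (adjusted p = 0.0548). Vgll1 had no read in any library, and Vgll2 lay below the filter. With Tead3 and Tead4, this list of 6 had 4 kept genes, 2 higher and 2 lower, against 37.0% and 35.9% of all kept genes, with a median log2 difference of -0.51.

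**Figure D4:**
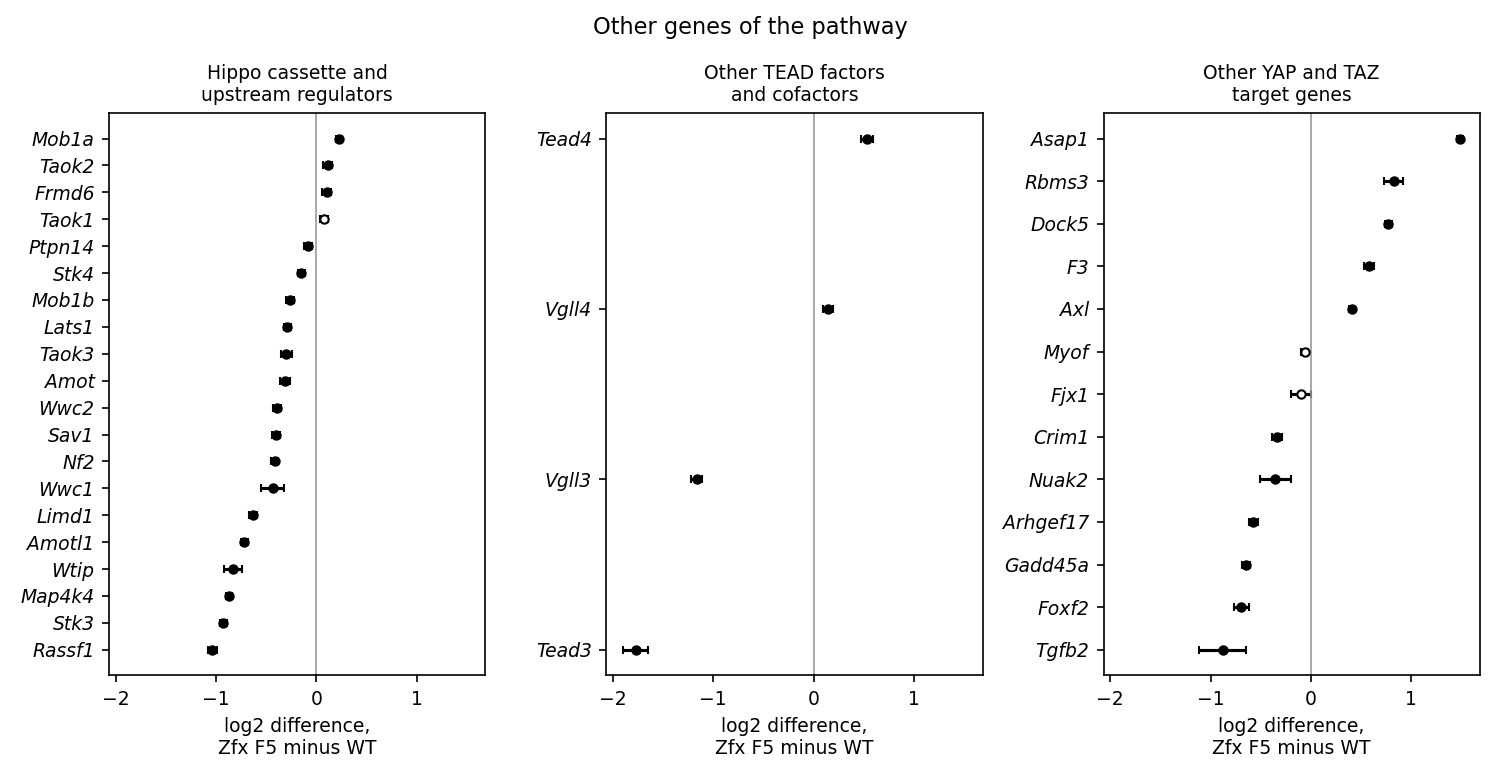
log2 difference, Zfx F5 minus WT, with bars of 1 standard error, for the kept genes of 3 lists; filled circles passed an adjusted p of 0.05 in limma and open circles did not. The Hippo cassette and upstream regulators lie mostly left of 0 (16 of 20 lower), the TEAD factors and cofactors have 2 on each side, and the other targets are split, 5 higher and 6 lower.

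Of 16 other genes used as YAP and TAZ targets, 13 were kept, and 5 rose, 6 fell and 2 did not pass, near the shares of all kept genes (37.0% higher, 35.9% lower). Nuak2, among those that fell, passed in only 7 of the 15 settings run for it (limma adjusted p from 0.0130 to 0.176). Their median log2 difference was -0.10, beside 0.02 over all kept genes. Asap1, a GTPase-activating protein gene for Arf, measured 948, 1003 and 983 CPM in the libraries labelled Zfx F5, against 342, 352 and 354 CPM in WT (2.80-fold higher). Rbms3, an RNA-binding protein gene, was 1.77-fold higher and Dock5, an exchange factor gene for Rac, 1.71-fold higher. Tgfb2, a TGF-beta ligand gene, was 1.84-fold lower at 0.971 CPM on average in the libraries labelled Zfx F5 and 1.82 CPM in WT. The forkhead gene Foxf2 was 1.62-fold lower and the stress response gene Gadd45a 1.57-fold lower. Axl, a receptor tyrosine kinase gene, and F3, which encodes tissue factor, were named after their values were seen and were 1.33-fold and 1.49-fold higher. Igfbp3 and Nt5e had no read in any library.

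Of the 20 nearest kept protein-coding genes, 1 on each side of each member, 8 were higher, 8 lower and 4 did not pass, near the 37.0% higher and 35.9% lower among all kept genes. Beside Cyr61, Znhit6 at 42.2 kb and Bcl10 at 272.8 kb were lower, with log2 differences of -0.27 (SE 0.056) and -0.21 (SE 0.043). Beside Ankrd1, Rpp30 at 7.2 kb had a log2 difference of -0.12 (SE 0.050) and Pcgf5 at 228.2 kb one of 0.37 (SE 0.038). Anapc13 and Ryk, on either side of Amotl2, had log2 differences of 0.68 (SE 0.070) and -0.58 (SE 0.036). Next to Ctgf, Stx7 at 405.2 kb was lower, with a log2 difference of -1.29 (SE 0.066), and Med23 did not pass (limma adjusted p = 0.672).

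The genes closest in pattern were found by the root mean square distance between log2 values over the 6 libraries, each gene centred on its own mean. Near to Cyr61 were Pfkl and Gaa, each at 0.020 log2 units. For Ankrd1 they were Ddx58 at 0.029, Cav1 at 0.031 and Plod1 at 0.031. For Ctgf they were Slc9b1 at 0.13, Kif26b at 0.14 and Mecom at 0.19. The log2 differences of the nearest genes were 1.04 for Pfkl, 1.16 for Ddx58 and 3.11 for Slc9b1, beside 1.06 for Cyr61, 1.16 for Ankrd1 and 2.94 for Ctgf. These genes were picked for the smallest distance, so similar log2 differences follow from that choice. Whether they share a regulator with the members was not tested.

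Markers of other cell types differed between the groups as well. Of 8 fibroblast markers 5 were kept, 2 higher and 3 lower, and the list summed to 3377 to 3505 CPM in the libraries labelled Zfx F5 and 1230 to 1260 CPM in WT, mostly Col3a1. Pi16 was 7.41-fold higher and Dcn 3.53-fold lower, and Thy1 had no read. Of 8 myeloid markers (9 rows) 3 were kept and 1 was higher, Lyz2, at 15.3 CPM on average in the libraries labelled Zfx F5 and 0.437 CPM in WT. The myeloid list summed to 25.6 to 27.8 CPM in the libraries labelled Zfx F5 and 11.0 to 13.6 CPM in WT. Cd68 and Cd14 did not pass, Ptprc had at most 1 read in a library and Adgre1 and Tyrobp had none. Of 7 endothelial markers Pecam1 and Egfl7 were kept and 2.96-fold and 2.23-fold higher, the list summed to 33.9 to 39.1 CPM in the libraries labelled Zfx F5 and 12.9 to 13.9 CPM in WT, and Kdr, Tek and Emcn had no read. Their part in the results on the YAP-TEAD genes was not tested, and in bulk RNA fewer cells of a type and less RNA per cell cannot be told apart.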

How the data were processed

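RNA from 3 libraries labelled Zfx F5 and 3 WT libraries was sequenced, and the authors deposited 1 log2 value per gene and library (52636 genes). The builds mm10 and GRCh38 come from the submitters' processing notes, and the aligner and counter were not given in the sources used here. From the values, the deposited log2 columns are log2(CPM + 0.0353): they share a floor of -4.82, and after undoing the log2 each column gave the same CPM total. Values of up to 300 reads were whole within 0.05 read in 100% of cases, so whole reads were recovered, and 1 read was worth 0.0413 to 0.0530 CPM. Intervals cover counting error only. The deposited size column, the authors' exon length, gave levels per kilobase, and ratios and pools were repeated with the exon lengths of GENCODE M21. Per the labels' protocols the libraries were made with Nextera XT, which does not mark strand, so antisense or overlapping genes cannot be separated, and the labels and design text differ on whether sorted or cultured cells were used.

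Genes with a mean log2 value of at least 0 (12279) were fitted with limma 3.58.1 in R 4.3.3 (variance trend, robust moderation, 2-sided, Benjamini-Hochberg over all kept genes at 0.05); the fit was tested on simulated data. Folds are on the log2(CPM + 0.0353) scale. Exact permutation tests used scipy 1.17.1. Coordinates are from GENCODE M21 on mm10. Every column was used (0 left out), and replicate numbers follow accession order and pair nothing. Named genes are all members, up to 6 called genes by size per pathway list, the nearest neighbours, the 3 nearest patterns (1 of them is not reported here) and 2 markers per list. The members and lists were chosen with earlier results of these data known. The alternatives were other filters, added constants, scalings, variance models, voom and leaving out each library.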

Additional observations from a re-analysis of the deposited data

How the results depend on the processing

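Of the 10 genes, Wwtr1, Tead1, Tead2, Cyr61, Ankrd1, Amotl2 and Lats2 kept their direction and passed in limma under all 16 settings run for them, the reported one included. The log2 difference ranged from 1.03 to 1.09 for Cyr61, from 1.12 to 1.18 for Ankrd1 and from 0.996 to 1.07 for Amotl2, whose lowest value is just under 2-fold. It ranged from -0.49 to -0.40 for Tead1 and from -0.32 to -0.19 for Lats2. Ajuba (-0.15) did not pass without trend and robust moderation (limma adjusted p = 0.0849), and its difference lay between -0.20 and -0.10 when 1 library was left out, with the call lost without Zfx F5 replicate 2 or WT replicate 2. Yap1 passed under none and was 0.00050 with median centring. Ctgf (2.94) passed without a filter and with at least 10 reads; the fit without a filter includes many rows with no read, so its p-values are not used. The Cyr61 to Ctgf and Ankrd1 to Ctgf ratio differences became 0.59 and 0.66 with 5 CPM added, a constant above every Ctgf level. Of the Hippo regulators, 1 rather than 3 rose without a filter, with TMM scaling, and without trend and robust moderation, and 1 to 3 when 1 library was left out, with 1 without WT replicate 1 or WT replicate 2; 15 or 16 fell in each of these. Of the TEAD cofactor list, 1 rather than 2 rose without a filter, and 1 to 2 with a library left out, 1 without Zfx F5 replicate 1. The level order over all 6 libraries moved 5 genes with the annotated exon length, since Yap1 drops from place 4 to 8, and 0 to 2 with a library left out. The TEAD core was found in 4 rather than 7 genes on the gene's own strand only. Over all genes, the order of 4546 higher and 4407 lower turned round with TMM scaling (4195 and 4697). The settings with at least 10 reads and voom were chosen after seeing the data. The planned edgeR and DESeq2 tests were not run. The values were deposited on the log2 scale and not as counts, and voom on the recovered reads was used in place of those tests. No paired analysis was possible because the labels give no replicate numbers.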
